A study of Mus musculus with 6 samples.

Results

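Prostaglandins are lipid messengers made from arachidonic acid. The cytosolic phospholipase encoded by Pla2g4a releases arachidonic acid from membranes, the cyclooxygenases encoded by Ptgs1 and Ptgs2 turn it into prostaglandin H2, and the terminal synthase encoded by Ptges turns that into prostaglandin E2. The E2 receptor genes are Ptger1 to Ptger4, and Ptgir encodes the prostacyclin receptor. In macrophages Ptgs2 is known as the inducible cyclooxygenase gene and Ptgs1 as the constitutive one. The receptors encoded by Ptger2, Ptger4 and Ptgir raise cyclic AMP, which in macrophages dampens some inflammatory cytokines.

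The genes described were these 9, 4 of enzymes and 5 of receptors, chosen by name, with every probe whose only annotated gene symbol was one of them. Of the 9, 8 had a probe, 3 of them enzyme genes and 5 receptor genes, with 15 of the 16281 probes of the table. No named probe stood for Ptgs1, so its level is not analysed here and Ptgs2 could not be set against it. Of the 15 probes, 8 had a value on all 6 arrays, 6 on some arrays and 1 on none. The 8 complete probes covered 6 genes: Pla2g4a, Ptgs2, Ptger2, Ptger3, Ptger4 and Ptgir. Ptges and Ptger1 had no complete probe and are given by array without a test.

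The cells were RAW 264.7, an established mouse macrophage line, so the data describe 1 line in culture. One RNA came from cells given lipopolysaccharide (LPS, the endotoxin of Gram-negative bacteria) at 100 ng/ml together with LPS-binding protein (LBP, a serum protein that carries LPS to its receptor) at 100 pM. The other RNA came from untreated cells, and both were cultured for 2 h. Both RNAs were hybridised to each of 6 arrays with 2 colours: on 3 arrays the treated RNA carried the red dye Cy5 and on 3 the green dye Cy3. Each orientation has its arrays numbered from set 1 to set 3. Nothing in the labels says that sets were separate cultures, so p-values measure only the spread between sets, which may be technical. The agents were given together, and no sample with LPS alone or LBP alone was analysed here.

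Values are log2 ratios of treated over untreated RNA. A positive value means more transcript after LPS and LBP, and a log2 ratio of 1 is a 2-fold rise. A ratio gives no level of a gene and cannot rank genes by abundance. Gene means are given ± SD of the 3 sets, each set being the mean of its array with treated RNA in Cy5 and its array with treated RNA in Cy3. "Rose" and "fell" are used of genes with an adjusted p under 0.05 by limma's moderated test over all 11231 features. In RNA of whole cultures, less transcript per cell and fewer cells carrying it cannot be told apart.

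As facts of the series, 8 of 10 genes known to be induced by LPS were measured on all arrays, and all 8 were positive on all 6 arrays once the swapped ones were turned. Deposited ratios of arrays of one orientation correlated across features with r between 0.50 and 0.73, and arrays of opposite orientation with r between -0.65 and -0.12. Among macrophage markers 2 rose, 2 fell and 4 did not pass. Among markers of lymphocytes, fibroblasts, endothelium and epithelium 0 of 13 passed by limma, and 4 had an unadjusted p under 0.05. Of all 11231 features 3150 had an unadjusted p under 0.05. Levels of the markers cannot be read from ratios.

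Of the 6 genes tested, 4 passed the threshold: Ptgs2 and Ptger4 rose, and Pla2g4a and Ptgir fell. Over all features 14.8% passed, 7.35% higher and 7.45% lower. The genes were chosen with earlier results of these data known, so their share cannot be read as a property of the pathway. The largest change was that of Ptgs2, with a log2 ratio of 1.32 ± 0.44 (2.49-fold, n = 3 sets). Ptger4 and Ptgir changed by 1.36-fold each, and Pla2g4a by 1.32-fold. The Ptger4 call was the least stable of the 4 and was lost under 9 of 18 alternatives.

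The promoter windows of the 4 genes that passed are shown because these transcripts moved in different directions in the same cells. Each holds 250 bases before and 50 after an annotated transcription start, from RefSeq on GRCm38.p6. A window was found for 8 of the 9 genes. The Pla2g4a window is that of the first of 2 starts listed.
Ptgs2, chr1:150099781-150100080, strand plus: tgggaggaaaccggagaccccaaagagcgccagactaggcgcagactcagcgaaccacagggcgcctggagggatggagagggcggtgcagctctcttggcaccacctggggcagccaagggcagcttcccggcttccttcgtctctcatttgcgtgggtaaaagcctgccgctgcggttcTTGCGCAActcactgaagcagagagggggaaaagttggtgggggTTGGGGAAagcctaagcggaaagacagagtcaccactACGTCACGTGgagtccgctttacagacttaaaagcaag
Ptger4, chr15:5244138-5244437, strand minus: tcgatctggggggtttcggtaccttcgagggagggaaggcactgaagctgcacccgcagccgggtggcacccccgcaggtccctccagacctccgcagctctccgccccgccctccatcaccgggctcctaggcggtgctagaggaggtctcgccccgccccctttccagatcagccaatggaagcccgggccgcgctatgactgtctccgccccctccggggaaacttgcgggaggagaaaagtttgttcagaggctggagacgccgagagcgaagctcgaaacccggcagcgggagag
Pla2g4a, chr1:149961241-149961540, strand minus: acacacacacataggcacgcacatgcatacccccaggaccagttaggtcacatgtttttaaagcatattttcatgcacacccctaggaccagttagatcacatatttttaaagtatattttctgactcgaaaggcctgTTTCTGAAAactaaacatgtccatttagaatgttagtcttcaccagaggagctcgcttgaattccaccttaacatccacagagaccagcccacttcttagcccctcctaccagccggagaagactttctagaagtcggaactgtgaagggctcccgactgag
Ptgir, chr7:16906240-16906539, strand plus: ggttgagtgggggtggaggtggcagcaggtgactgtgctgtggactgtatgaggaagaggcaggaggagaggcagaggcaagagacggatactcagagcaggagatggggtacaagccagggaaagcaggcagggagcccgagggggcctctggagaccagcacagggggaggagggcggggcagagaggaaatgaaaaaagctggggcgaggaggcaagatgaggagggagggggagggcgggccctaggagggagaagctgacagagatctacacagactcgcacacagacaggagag

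Capitals mark matches, on either strand, to motifs of factors that are known to act on Ptgs2 or on early LPS targets, and of the core promoter. The motifs searched were the κB consensus, the C/EBP motif TTNNGNAA, the core TGACGT of the cyclic AMP response element (CRE), the E-box CACGTG, the AP-1 motif TGANTCA and the TATA box TATAAA. The Ptgs2 window held 4 matches. The C/EBP motif matched as TTGCGCAA from base -69 and as TTGGGGAA from base -25, counted from the annotated start. The CRE core matched as ACGTCA from base 13 and the E-box as CACGTG from base 17, so that these overlap. The Pla2g4a window held 2 overlapping C/EBP matches, from bases -112 and -111. The window of its second start, not shown, had no C/EBP match and 1 match to the TATA box, as TTTATA from base -200. The Ptger4 and Ptgir windows held no match to any of the 6 motifs. Among all 32851 windows of the same length, 40.7% held the C/EBP motif, 7.51% the CRE core and 7.15% the E-box. The κB consensus was in 5.81% of windows, AP-1 in 7.81% and the TATA box in 13.6%. A match describes letters only, and no binding was measured. Positions rest on the annotated start, which was not checked in these cells, and sites outside the windows were not searched.

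**Figure D1:**
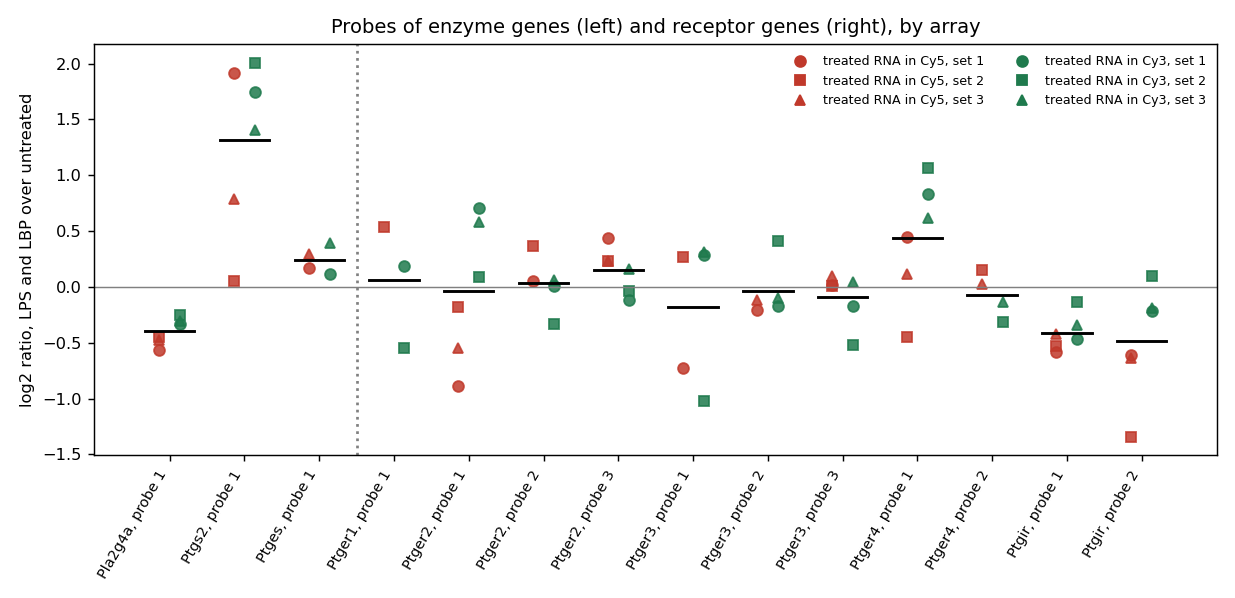
Log2 ratio of treated over untreated RNA (vertical axis) of the probes with a value, enzymes left of the dotted line and receptors right of it. Colours mark the dye of the treated RNA, symbols the set and bars the mean over arrays. Ptgs2 reaches highest and has its points furthest apart, from 0.05 to 2.01.

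Ptgs2 had log2 ratios of 1.91, 0.05 and 0.78 on the arrays of sets 1, 2 and 3 with treated RNA in Cy5, and of 1.75, 2.01 and 1.41 on those with treated RNA in Cy3. It was higher after LPS and LBP on 6 of 6 arrays, though on the Cy5 array of set 2 it was almost level. The means of sets 1, 2 and 3 were 1.83, 1.03 and 1.10. The mean of 1.32 ± 0.44 (SD, n = 3) had a standard error of 0.15, a 95% interval of 0.95 to 1.69 and an adjusted p of 0.00273 by limma. It ranked as number 84 among the 11231 features by size of rise.

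The spread of Ptgs2 over the arrays was wide for a gene that rose this much. The SD of its 6 sign-turned ratios was 0.762 and their range was 1.95. Among the 123 features that passed with a log2 ratio above 1, the median SD over arrays was 0.228 and 0 had a larger SD than Ptgs2. The next was Rsad2, an interferon-induced antiviral gene, at 0.693. Over all features 0.418% had a larger SD. The array spread of Ptgs2 was picked for description with earlier results of these data known. Its place in these orders, and that of its gap within set 2 below, is therefore a description and not a test.

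Ptgs2 stood at place 52, 4691 and 168 from the top on the Cy5 arrays of sets 1, 2 and 3, and at place 76, 41 and 82 on the Cy3 arrays, of 11231 features. It was thus far up the order on 4 arrays, lower on the Cy5 array of set 3 and near the middle on that of set 2. On the Cy5 array of set 2 the median of the 123 strong rises was 1.57, against medians between 1.63 and 1.76 on the other arrays. Ptgs2 was the lowest of the 123 there. Of the 123, 40 had their own lowest value on that array.

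Within set 2 the Cy5 array lay 1.95 below the Cy3 array for Ptgs2, the largest such gap among the 123. The gap was 0.16 in set 1, with Cy5 the higher, and -0.62 in set 3. The median size of this gap over all features was 0.19, 0.29 and 0.15 in sets 1, 2 and 3. Ptgs2 has 1 probe, so no other probe bears on the low value. Without the Cy5 array of set 2 the mean was 1.64 (adjusted p = 0.0114 by limma). Without the Cy3 array of set 2 it was 0.99 (adjusted p = 0.166), because that set then rested on the low value. Without both arrays of set 2 the mean was 1.46 (adjusted p = 5.0e-07), and without set 1 it was 1.06 (adjusted p = 0.00148). The size of the rise thus moved with the arrays and sets left out. Of these cases the call was lost only where the Cy5 array of set 2 stood without its pair. The direction held in each case.

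Pla2g4a, the phospholipase gene at the first step, fell by a small and even amount. Its log2 ratios were -0.57, -0.45 and -0.47 on the Cy5 arrays of sets 1, 2 and 3 and -0.33, -0.25 and -0.31 on the Cy3 arrays. All 6 lay below 0, and in every set the Cy5 array was the lower. The mean was -0.40 ± 0.05 (SD, n = 3), or 1.32-fold lower, with a 95% interval of -0.51 to -0.28 and an adjusted p of 0.00286 by limma. The SD over arrays was 0.119, against a median of 0.19 over all features. The adjusted p was 0.0503 without set 3 and 0.0682 without the Cy5 array of set 2, with means of -0.40 and -0.36.

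Ptges, the prostaglandin E synthase gene, was measured in 2 of the 3 sets and not tested. It had 0.17 and 0.29 on the Cy5 arrays of sets 1 and 3, and 0.12 and 0.39 on the Cy3 arrays of the same sets. All 4 values were positive, with a mean of 0.24. Both arrays of set 2 listed its probe at exactly 0, which was read as missing.

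Ptger4, the gene of the EP4 receptor, rose on average but not on every array. Its log2 ratios were 0.45, -0.44 and 0.11 on the Cy5 arrays of sets 1, 2 and 3, and 0.83, 1.06 and 0.62 on the Cy3 arrays. The 3 Cy3 arrays lay above all 3 Cy5 arrays. The set means were 0.64, 0.31 and 0.37, giving 0.44 ± 0.18 (SD, n = 3), or 1.36-fold, with a 95% interval of 0.26 to 0.62 and an adjusted p of 0.0109 by limma. In set 2 the Cy5 array lay 1.51 below the Cy3 array.

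The Ptger4 call was lost under 9 of the 18 alternatives run on it. From the Cy5 arrays alone its mean was 0.04 (adjusted p = 0.915 by limma) and from the Cy3 arrays alone 0.84 (adjusted p = 0.0264). Without the Cy5 array of set 2 the mean was 0.69 (adjusted p = 0.0681), and without the Cy3 array of set 2 it was 0.19 (adjusted p = 0.644). The adjusted p was 0.0596 without the Cy5 array of set 1 and 0.0817 without set 3, with means of 0.50 and 0.48. With the 6 arrays taken as separate samples it was 0.204. A second Ptger4 probe, with values on 4 arrays and so not in the test, did not show the rise: it had 0.15 and 0.02 on the Cy5 arrays of sets 2 and 3, and -0.32 and -0.14 on the Cy3 arrays. With its values included the mean of Ptger4 was 0.30 (adjusted p = 0.170).

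Ptgir, the prostacyclin receptor gene, fell in all 3 sets. The mean of its 2 probes was -0.60, -0.94 and -0.53 on the Cy5 arrays of sets 1, 2 and 3, and -0.34, -0.02 and -0.27 on the Cy3 arrays. All 6 were below 0, the Cy3 array of set 2 barely so. The set means of -0.47, -0.48 and -0.40 gave -0.45 ± 0.04 (SD, n = 3), or 1.36-fold lower, with a 95% interval of -0.56 to -0.34 and an adjusted p of 0.00169 by limma. As single features the probes gave -0.41 (adjusted p = 0.00413) and -0.48 (adjusted p = 0.00275). Of all complete probes taken alone 15.0% passed. The first Ptgir probe was below 0 on 6 of 6 arrays and the second on 5 of 6, ranging from -1.34 to 0.10. Both probes are annotated to the same transcript record, so they are not independent targets. Without the Cy5 array of set 2 the mean was -0.30 (adjusted p = 0.262).

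Ptger2, the gene of the EP2 receptor, did not pass. The mean of its 2 complete probes was -0.23, 0.03 and -0.16 on the Cy5 arrays of sets 1, 2 and 3, and 0.29, 0.02 and 0.37 on the Cy3 arrays. In sets 1 and 3 the orientations had opposite signs, and in set 2 both lay near 0. The mean was 0.06 ± 0.04 (SD, n = 3) with a 95% interval of -0.06 to 0.17 and an adjusted p of 0.509 by limma. The probes differed from each other. The first had -0.89, -0.18 and -0.55 on the Cy5 arrays and 0.71, 0.09 and 0.58 on the Cy3 arrays. Before the swapped arrays were turned, that probe was negative on all 6, with a dye lean of -0.50 (adjusted p = 0.0763 by limma, where 1.55% of all complete probes passed). The third had 0.44, 0.23 and 0.23 on the Cy5 arrays and -0.12, -0.04 and 0.16 on the Cy3 arrays. The second, measured on 5 arrays, averaged 0.03.

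Ptger3, the gene of the EP3 receptor, which is known to lower cyclic AMP, did not pass either. Its complete probe had 0.02, 0.01 and 0.10 on the Cy5 arrays of sets 1, 2 and 3, and -0.17, -0.52 and 0.04 on the Cy3 arrays. The values lay on both sides of 0, with the Cy3 array of set 2 the lowest. The mean was -0.09 ± 0.16 (SD, n = 3), with a 95% interval of -0.26 to 0.08 and an adjusted p of 0.484 by limma. Its other 2 probes had values on 5 arrays each and averaged -0.18 and -0.04.

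Ptger1, the gene of the EP1 receptor, was barely measured. One probe had 0.54 on the Cy5 array of set 2, 0.19 on the Cy3 array of set 1 and -0.55 on the Cy3 array of set 2. These do not share a direction. The other probe had no value on any array.

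Set side by side, neither role moved in one direction. Of the 2 enzyme genes tested 1 rose and 1 fell. Among receptors, Ptger4 rose, Ptgir fell, and the other 2 of the 4 tested missed the threshold. The rise of Ptger4 is the weaker part of this, since its call was lost under 9 of 18 alternatives. The median log2 ratio was 0.46 for the enzymes, which is the midpoint of Ptgs2 and Pla2g4a, and -0.02 for the receptors, with a range of -0.45 to 0.44. By set, the enzymes' median was 0.69, 0.34 and 0.35 in sets 1, 2 and 3, and the receptors' median was -0.02, -0.12 and 0.09. The median size of change, sign aside, was 0.86 for the enzymes and 0.26 for the receptors, against 0.07 over all features. With 2 and 4 genes these medians describe the genes named and no test was made on them. Since the genes were chosen with earlier results known, these sizes cannot be read as a property of the pathway.

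The median SD over arrays was 0.44 for the enzymes and 0.28 for the receptors, against 0.19 over all features. The wide spread was not a shared property of the enzymes, since Ptgs2 had 0.762 and Pla2g4a 0.119. Of the 4 receptors, Ptger4 was the most variable at 0.541, followed by Ptgir at 0.315.

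**Figure D2:**
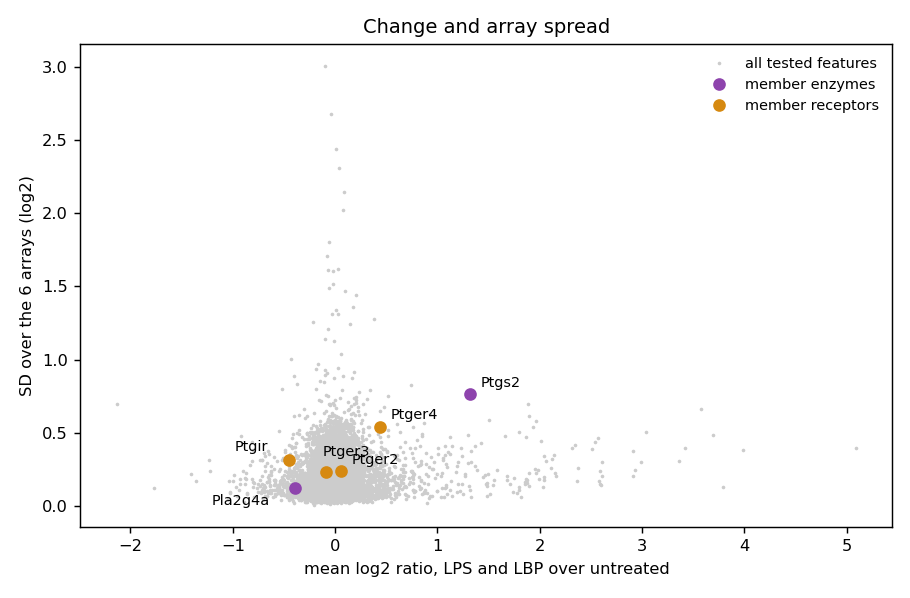
SD over the 6 sign-turned arrays against the log2 ratio of all 11231 features, with the 6 genes named. Ptgs2 has the largest SD, 0.762, of the features above a log2 ratio of 1, and Pla2g4a, at 0.119, lies in the low part of the cloud.

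Dye orientation moved with several of these results. Of the 6 genes, 5 had a lower mean on the Cy5 arrays than on the Cy3 arrays, as did 49.6% of all features. The lean, measured as the mean of the ratios before turning, was -0.40 for Ptgs2, -0.40 for Ptger4, -0.24 for Ptgir, -0.17 for Ptger2 and -0.10 for Pla2g4a. After adjustment 0 of the 6 passed by limma, the lowest adjusted p being 0.113, and 0.499% of all features passed. At an unadjusted p under 0.05 there were 4 of the 6, and 25.2% of all features. From the Cy5 arrays alone, Pla2g4a and Ptgir passed, both lower. From the Cy3 arrays alone, Ptgs2 and Ptger4 passed, both higher. For Ptgs2 the Cy5 arrays gave 0.92 (adjusted p = 0.210) and the Cy3 arrays 1.72 (adjusted p = 0.00941). For Ptgir the Cy3 arrays gave -0.21 (adjusted p = 0.213), and for Pla2g4a -0.30 (adjusted p = 0.0636). The part of dye orientation in the spread of Ptgs2 was not tested beyond these values.

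Of the 6 genes, 3 had one sign on all 6 arrays: Ptgs2, Pla2g4a and Ptgir. Over all features 19.1% did. A two-sided exact sign-flip permutation test over the 3 sets gave p = 0.25 for each of the 4 genes that passed, which is the smallest p that 3 sets allow. Any gene whose 3 set means share a sign gets this value, so the test adds nothing on these 4 genes.

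By the root mean square difference over the 6 arrays, the genes nearest to Ptgs2 among 9471 compared were Hdc, Xirp1, Zbtb22, Bcl6b and Rgs1. Hdc encodes histidine decarboxylase, which makes histamine, and its difference from Ptgs2 was 0.425 with a mean log2 ratio of 1.23. The differences of the others were 0.426 for Xirp1, 0.455 for Zbtb22, 0.510 for Bcl6b and 0.523 for Rgs1, a regulator of G protein signalling, with mean log2 ratios between 1.01 and 1.37. All 5 had their lowest value on the Cy5 array of set 2, between 0.26 and 0.75, as Ptgs2 did. The 5 were chosen by nearness to Ptgs2 on these same 6 arrays, so a shared low value there follows in part from the choice. The likeness also includes what the genes share by lying on the same arrays.

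**Figure D3:**
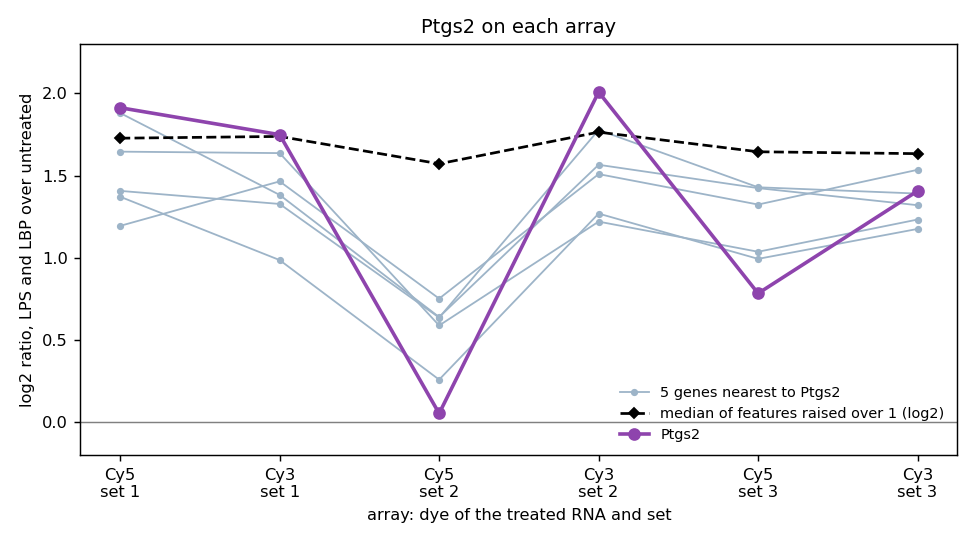
Log2 ratio of treated over untreated RNA on each of the 6 arrays for Ptgs2 (purple), its 5 nearest genes (pale lines) and the median of the 123 features that rose by a log2 ratio over 1 (dashed); lines join values of one gene and do not mark an order. On the Cy5 array of set 2 Ptgs2 lies at 0.05, the 5 genes between 0.26 and 0.75 and the median at 1.57.

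The other genes of the pathway were described from lists of 100 genes, of which 68 were tested. Of these 10 rose and 8 fell, or 26.5%, against 14.8% of all features. The lists were chosen with earlier results of these data known, so this share cannot be read as a property of the pathway. For the 5 lists of eicosanoid enzymes, carriers and receptors, the share was close to that of all features: of 34 genes tested 2 rose and 3 fell, or 14.7%, with a median of 0.00. The other calls lay in cyclic AMP signalling and among regulators of Ptgs2.

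Among other phospholipases A2, 1 of 12 rose and 0 fell. That was Pla2g5, a secreted phospholipase, at 0.47 ± 0.05 (adjusted p = 0.00151 by limma), between 0.38 and 0.53 on all 6 arrays. It stood opposite to the cytosolic enzyme gene Pla2g4a. Among other prostanoid synthases 0 of 7 rose and 1 fell: Hpgds, the hematopoietic prostaglandin D synthase gene, at -0.40 ± 0.13 (adjusted p = 0.00814). The Hpgds call was lost without set 3 (adjusted p = 0.101), without the Cy5 array of set 2 (0.0696) and without the Cy3 array of set 1 (0.131). Of the genes of transport and breakdown only Ptgr2, a prostaglandin reductase gene, was tested, at -0.15, and it did not pass. The other prostanoid receptors did not pass in 5 of 5 cases by limma, with log2 ratios from -0.11 to 0.08. Of these 5, 0 had an unadjusted p under 0.05, against 3150 of all 11231 features.

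Of 9 leukotriene and lipoxygenase genes 1 rose and 2 fell. Cysltr1, a receptor gene for cysteinyl leukotrienes, fell, at -0.67 ± 0.08 (adjusted p = 0.000532), with all 6 arrays between -0.80 and -0.56. Alox5ap, whose protein presents arachidonic acid to 5-lipoxygenase, stood at -0.22 ± 0.06 (adjusted p = 0.0305), below 0 on 4 of 6 arrays. Lta4h, the leukotriene A4 hydrolase gene, stood at 0.18 ± 0.04 (adjusted p = 0.0434), above 0 on 5 of 6 arrays. One Lta4h probe taken alone was at -0.02. Leaving out any 1 set or array gave -0.29 to -0.15 for Alox5ap (adjusted p from 0.0260 to 0.299), with the call kept only without the Cy5 array of set 3. It gave 0.12 to 0.25 for Lta4h (adjusted p from 0.0559 to 0.514), with the call never kept.

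Of 19 genes of receptor signalling through cyclic AMP 2 rose and 2 fell. Pde4b, a phosphodiesterase that breaks down cyclic AMP, had the largest rise of the pathway lists at 2.58 ± 0.13 (5.98-fold, adjusted p = 9.16e-06), above 2.25 on all 6 arrays. Akap13, an anchoring protein of the cyclic AMP-dependent kinase, had 0.45 ± 0.06 (adjusted p = 0.0021), with arrays between -0.03 and 1.07. Without the Cy3 array of set 2 it had 0.26 (adjusted p = 0.267), without the Cy5 array of set 2 it had 0.63 (adjusted p = 0.101), and neither orientation alone passed. The adenylyl cyclase genes Adcy6 and Adcy9, whose enzymes make cyclic AMP, stood at -0.41 ± 0.08 (adjusted p = 0.00348) and -0.36 ± 0.08 (adjusted p = 0.00599). Adcy6 was below 0 on 6 of 6 arrays and Adcy9 on 5 of 6. Without the Cy5 array of set 2 neither passed, at -0.35 for Adcy6 (adjusted p = 0.124) and -0.22 for Adcy9 (adjusted p = 0.466). Without set 3 neither passed either (adjusted p = 0.0600 and 0.0781).

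Of 15 regulators of the transcription or mRNA of Ptgs2 and Ptges, 6 rose and 3 fell. The transcription factor genes Cebpd at 1.74 ± 0.08 and Egr1 at 1.49 ± 0.14 (adjusted p = 4.34e-05) rose the most, followed by Zfp36 at 0.85 ± 0.08, whose protein speeds the decay of mRNAs with AU-rich ends. Cebpb rose by 0.58 ± 0.04 (adjusted p = 0.000588), Mapkapk2 by 0.45 ± 0.05 (adjusted p = 0.00176) and Rela, an NF-κB subunit gene, by 0.38. Mapk14, the p38 kinase gene, stood at -0.50 ± 0.07 (adjusted p = 0.00148), Jun at -0.35 ± 0.19 (adjusted p = 0.0302) and Usf2 at -0.21 ± 0.10 (adjusted p = 0.0492). Of these 9, only Jun differed in sign between arrays, from -1.16 to 0.37, and without the Cy5 array of set 2 it had -0.096 (adjusted p = 0.778). The calls of Jun and Usf2 were kept in 6 and 5 of 18 alternatives, and that of Usf2 was lost without any 1 array. Rela did not pass without set 3 (adjusted p = 0.0515) or without the Cy5 array of set 2 (adjusted p = 0.176). With the 6 arrays taken as separate samples, Akap13, Adcy9, Jun, Alox5ap and Lta4h did not pass. Over the 6 arrays Cebpd lay between 1.64 and 1.85, Egr1 between 1.14 and 1.75 and Zfp36 between 0.74 and 0.95, each over a narrower range than Ptgs2.

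**Figure D4:**
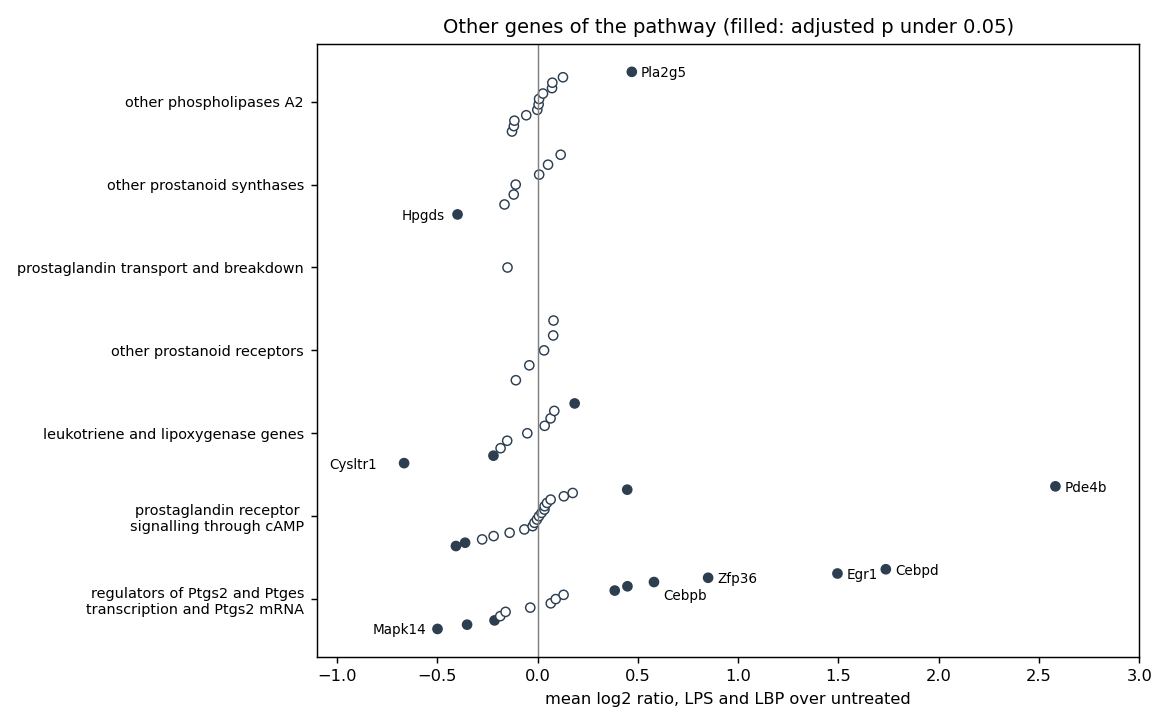
Mean log2 ratio of each tested gene of the pathway lists, one row a list, with genes past the threshold filled. The rows of regulators and of cyclic AMP signalling hold the points furthest right, Pde4b at 2.58 and Cebpd at 1.74, and the other prostanoid receptors lie between -0.11 and 0.08.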

How the data were processed

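The authors deposited log2 ratios of the 2 channels of each array, 1 value per probe. The log base was read from the values: between 87.3% and 92.8% of each array's values had the decimals of a log10 ratio multiplied into log2, to within 0.001 of the last of 7 decimals. How dyes were normalized and background corrected is not stated in the sources used here, and no spot intensities were used. Medians of the arrays were 0.00 to 0.02. No source states the direction, and Cy5 over Cy3 is the likely one, checked on genes that LPS induces. The labels mostly write RAW 264.7 for the cells, and the series title writes RAW 264.4.

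Exact zeros, 10.8% of values and between 9.12% and 12.4% of each array, were read as missing. The sign was turned on arrays with treated RNA in Cy3. Probes were named from the platform annotation, which gave 13738 probes with 1 symbol, 52 with several and 2491 with none. The 13224 probes measured on all arrays were averaged by gene into 11231 features, 9472 of them named genes. The arrays of a set were averaged, and limma 3.58.1 tested whether the average of the 3 set values differed from 0 (R 4.3.3, lmFit, eBayes, prior df 4.16), adjusted by Benjamini-Hochberg over all features at 0.05. Dye lean was the intercept of a fit to the 6 unturned arrays with a term for orientation. The number of arrays limits the precision.

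The set was the unit by its number in the labels. Deviations of same-numbered arrays from their orientation's mean correlated at r = 0.40, 0.43 and 0.14 in sets 1, 2 and 3 in the deposited signs, and so at -0.40, -0.43 and -0.14 once the signs were turned. What they share is therefore opposite in the direction of treatment and cancels in a set's mean, which narrows the spread between sets. The members and lists were chosen with earlier results of these data known. The text names all members, the pathway genes past the threshold and the 5 genes nearest to Ptgs2. The limma fit to set values was run on simulated independent normal values. Sign turning, averaging of arrays and the dye lean fit were not part of that run. Alternatives were single orientations, single probes, left-out sets and arrays, other scalings, other fits and other treatments of zeros.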

Additional observations from a re-analysis of the deposited data

Results flagged for a closer look

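A Ptger3 probe measured on 5 arrays had 1 array far from the others. It read -0.21 and -0.12 on the Cy5 arrays of sets 1 and 3, and -0.17, 0.41 and -0.10 on the Cy3 arrays of sets 1, 2 and 3. The gap of the value 0.41 to the nearest other was 0.827 of the whole range, above Dixon's 95% critical value for 5 arrays. Chance marks about 1 in 20 such groups. This probe was incomplete and did not enter the Ptger3 test.

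The incomplete Ptger4 probe had opposite signs in the 2 dye orientations once the swapped arrays were turned. Both its Cy5 arrays were positive, at 0.15 and 0.02, and both its Cy3 arrays negative, at -0.32 and -0.14. The difference between the orientations was 0.317 and was not tested. Before turning, all 4 values of this incomplete probe were positive, whereas the tested Ptger4 probe had a dye lean of -0.40.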

How the results depend on the processing

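The number of features past the threshold, 1663 as reported, was 668 from the Cy5 arrays alone, 663 from the Cy3 arrays alone and 962 with exact zeros kept as 0. It was between 563 and 1685 when 1 set was left out and between 533 and 1329 when 1 array was. Of the 6 members, 4 passed as reported, and 2 passed from either orientation alone and with zeros kept. Leaving out a set left 2 to 4 members and leaving out an array 1 to 4, the fewest without the Cy5 array of set 2. The enzymes counted 1 of 2 from either orientation alone and with zeros kept, and 1 to 2 when a set or an array was left out. Of the receptors, 1 passed in place of 2 with 6 arrays and no block, with a dye term, from either orientation alone, with missing values allowed and with zeros kept. Leaving out a set gave 1 to 2 receptors and leaving out an array 0 to 2. The other pathway genes past the threshold, 18 as reported, were 11 from the Cy5 arrays alone, 10 with zeros kept, 11 to 17 without a set and 9 to 16 without an array. Features with a dye lean, 56 as reported, were 34 with arrays centred, 264 with arrays scaled, 34 with the set as a replicate block, 385 with zeros kept and 0 to 0 without a set. The cause of these shifts was not tested.

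With the set as a replicate block over 6 turned arrays, where the estimated correlation within a set was -0.441, the 4 members kept their calls (adjusted p = 0.00137 for Ptgs2, 0.0342 for Ptger4 and 0.0026 for Ptgir by limma), and Jun lost its call (adjusted p = 0.0731). With no block 1376 features and 3 members passed, without Ptger4. Members' calls were also kept with arrays centred or scaled. With zeros kept, Ptgs2 had an adjusted p of 0.0839 and Ptger4 of 0.177. Ptges, tested there, had 0.16 (adjusted p = 0.385). Among members, directions turned only for genes that had not passed. Ptger2 was -0.12 from the Cy5 arrays alone, -0.033 to 0.14 when an array was left out, and -0.040 from its first probe. Leaving out the Cy3 array of set 1 or of set 3 put Ptger2 below 0. Ptger3 was 0.041 from the Cy5 arrays alone and -0.18 to 0.00049 when an array was left out. Among pathway genes, a direction turned for Lta4h, which had passed: 1 of its probes gave -0.015. Of the comparisons of single alternatives for the 4 members that passed, 57 kept the call and 17 lost it. For Ptger2 and Ptger3, which had not passed, 32 kept direction without passing and 6 turned. For the pathway genes that passed, 263 kept the call, 76 lost it and 1 turned. The planned difference between Ptgs2 and Ptgs1 was not run, since Ptgs1 had no named probe. Signal over background is unknown.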
